A study of Mus musculus with 12 samples.

Results

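The mouse mitochondrial genome encodes 7 subunits of respiratory complex I, ND1, ND2, ND3, ND4, ND4L, ND5 and ND6. Their transcripts were taken from the expression table by these 7 gene symbols, and all 7 were found among its 24824 genes. The rows were matched by name, but the genes of this genome had been selected on their FPKM in group C vs. B, so that comparison is given as a description with no test. Libraries of groups B and C thus entered the selection, so the tests of B vs. A and C vs. D are not fully separate from it. AML12 is an immortalized mouse hepatocyte line, given as wild type in the labels. All groups were 24 h cultures of these cells with 3 libraries each. Group A received standard growth medium alone. Group B received 300 μM CuCl2 with 40 nM elesclomol (ES), an ionophore that carries copper into cells (Cu/ES). In group C the same Cu/ES was combined with 1000 μM taurocholic acid (TCA), a conjugated bile acid. Cells of group D were given TCA at 1000 μM and no Cu/ES. The line stands for hepatocytes at most in part. Of 6 hepatocyte markers measured, only 2 averaged 1 FPKM or more in group A, and the cholangiocyte marker Krt19 averaged 268 FPKM there. Alb and Hnf4a, which define hepatocytes, reached at most 0.0758 and 0.0304 FPKM in any library, whereas Krt8 and Krt18 averaged 344 and 285 FPKM in group A.

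Complex I takes electrons from NADH, passes them to ubiquinone and pumps protons across the inner mitochondrial membrane. The ND subunits are the core of its membrane arm. ND2, ND4 and ND5 are related to sodium-proton antiporters and belong to the proton-pumping modules, ND1 forms much of the ubiquinone site, and ND3, ND4L and ND6 lie between that site and the pumps. The remaining subunits are nuclear-encoded and imported. The mitochondrial genome is copied into long RNAs from both strands by a single RNA polymerase, and these are cut at the tRNAs into mRNAs, most of which receive a short poly(A) tail. ND6 is the only protein gene on its strand, and in human cells its mRNA is known to carry little or no poly(A).

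The libraries were made from polyadenylated RNA, so every level below concerns the transcripts which that selection retained. The deposited values are FPKM, fragment counts scaled to gene length and library size. They can be compared between genes only where the reads of each gene are assigned alike. Recovered totals ranged from 29115011 to 34912748 reads per library with Cu/ES (groups B and C) and from 38298857 to 39782142 without it. Replicate 2 stood apart from its group in all 4 groups. Pairs of libraries that included it differed by a chi-square of 22.8 to 73.6 per gene, against 6.92 to 12.1 for the other pairs. Every library differed from the others of its group by more than counting error. The labels do not say whether replicates were separate cultures, so p-values measure the spread between these libraries, which may be technical. In bulk RNA, fewer cells of a kind and less RNA per cell cannot be told apart.

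Sequences of the ND transcripts show why reads from some of them may not be assigned to 1 place. Of the 100-base windows of ND3, 97.6% had an exact copy in an annotated nuclear transcript, as had 98.5% of those of ND4L and 60.8% of those of ND4 (GENCODE M21, GRCm38). The copies are unprocessed pseudogenes on chromosome 1, Gm28438 for ND3, Gm10222 for ND4L and Gm28439 for the first part of ND4. The value was 3.19% for ND2 and 0% for ND1, ND5 and ND6. The first 300 bases of ND3 and the whole of ND4L are shown here as the most copied of the 7. In ND3 the capital marks the only base that differs in the aligned nuclear copy (T3C, position counted from the first base of ND3), and in ND4L the capitals mark the 7 bases shared with the start of ND4.
ND3: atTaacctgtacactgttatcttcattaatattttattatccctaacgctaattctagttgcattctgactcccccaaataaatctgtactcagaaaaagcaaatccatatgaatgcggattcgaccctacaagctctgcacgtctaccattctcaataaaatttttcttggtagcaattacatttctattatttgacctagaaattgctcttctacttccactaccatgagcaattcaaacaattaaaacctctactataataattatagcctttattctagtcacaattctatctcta
ND4L: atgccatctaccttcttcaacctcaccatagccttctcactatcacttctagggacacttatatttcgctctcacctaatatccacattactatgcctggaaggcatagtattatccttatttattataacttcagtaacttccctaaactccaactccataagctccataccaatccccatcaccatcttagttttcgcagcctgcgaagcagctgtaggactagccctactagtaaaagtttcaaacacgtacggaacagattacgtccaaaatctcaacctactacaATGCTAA

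ND4L and ND4 lie end to start on 1 strand and are known as 1 bicistronic mRNA. ND5 and ND6 meet end to end on opposite strands and share 14 bases, marked by capitals in their last 60 bases. Whether strand was used in counting is not given in the sources used here. If it was not, reads over these 14 bases cannot be told apart between ND5 and ND6. RNA copied from the opposite strand over the rest of ND6 would then also count as ND6. The part of such reads in the level of ND6 was not tested.
ND4 start: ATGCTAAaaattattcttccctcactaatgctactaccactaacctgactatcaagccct
ND5 end: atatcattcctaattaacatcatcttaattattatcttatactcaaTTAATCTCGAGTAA
ND6 end: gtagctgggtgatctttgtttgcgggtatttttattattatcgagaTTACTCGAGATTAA
The ends of ND1, ND2 and ND4 differ in another way. ND1 and ND2 finish with a complete stop codon, whereas ND4 has 1378 bases and leaves a single T, which the poly(A) tail is known to complete to a stop codon. The capitals mark these last bases.
ND1 end: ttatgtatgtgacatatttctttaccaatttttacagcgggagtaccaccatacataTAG
ND2 end: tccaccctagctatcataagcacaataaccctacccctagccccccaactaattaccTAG
ND4 end: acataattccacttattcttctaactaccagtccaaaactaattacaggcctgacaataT

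The FPKM of the 7 transcripts spanned more than 2 orders of magnitude. In group A, ND1 had the highest mean at 2324 ± 394 FPKM (SD, n = 3) and ND3 the lowest at 2.99 ± 0.453 FPKM, a ratio of 777. The order in groups A and D was ND1, ND2, ND5, ND4, ND6, ND4L and ND3, in which libraries of ND2 and ND5 overlapped in both groups and those of ND6 and ND4L overlapped in group D. In groups B and C, ND4 came before ND5 and ND3 before ND4L. Libraries of ND3 and ND4L overlapped in both groups, and those of ND1 and ND2 overlapped in group B. The ratio of highest to lowest was 630, 534 and 628 for groups B, C and D.

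The 3 lowest transcripts also rested on the fewest reads. ND3 had 35 to 47 reads per library in group A and 135 to 191 in group B, ND4L had 83 to 111 and 94 to 140, and ND6 had 322 to 502 and 688 to 906. The highest, ND1, had 77543 to 103439 reads in group A. For ND3 in group A the libraries differed by a coefficient of variation of 15.1%, close to the 15.7% that counting alone gives. For ND4L in group D the coefficient was 50.8% against 9.52% from counting.

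Low level and annotated nuclear copies went together along the genome, apart from ATP8 and ND6. The 5 mRNAs with an exact nuclear copy of over 90% of their windows were COX2, ATP6, COX3, ND3 and ND4L. Their means in group A ran from 2.99 FPKM for ND3 to 33.5 FPKM for COX2. ATP8 lies among them, had no such copy in an annotated transcript and averaged 2.50 FPKM. ND6 had none either and averaged 21.3 FPKM. Sequence outside annotated transcripts was not searched, so copies there, for ATP8 as for the others, are not known. The other 6 mRNAs, ND4 with 60.8% of its windows included, averaged 678 FPKM or more. HTSeq, which counted the reads, leaves out reads that map to several places by default, but the setting used is not given in the sources used here. The part of nuclear copies in these levels was not tested, and the levels of ND3, ND4L and ND4 are uncertain for this reason.

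**Figure D1:**
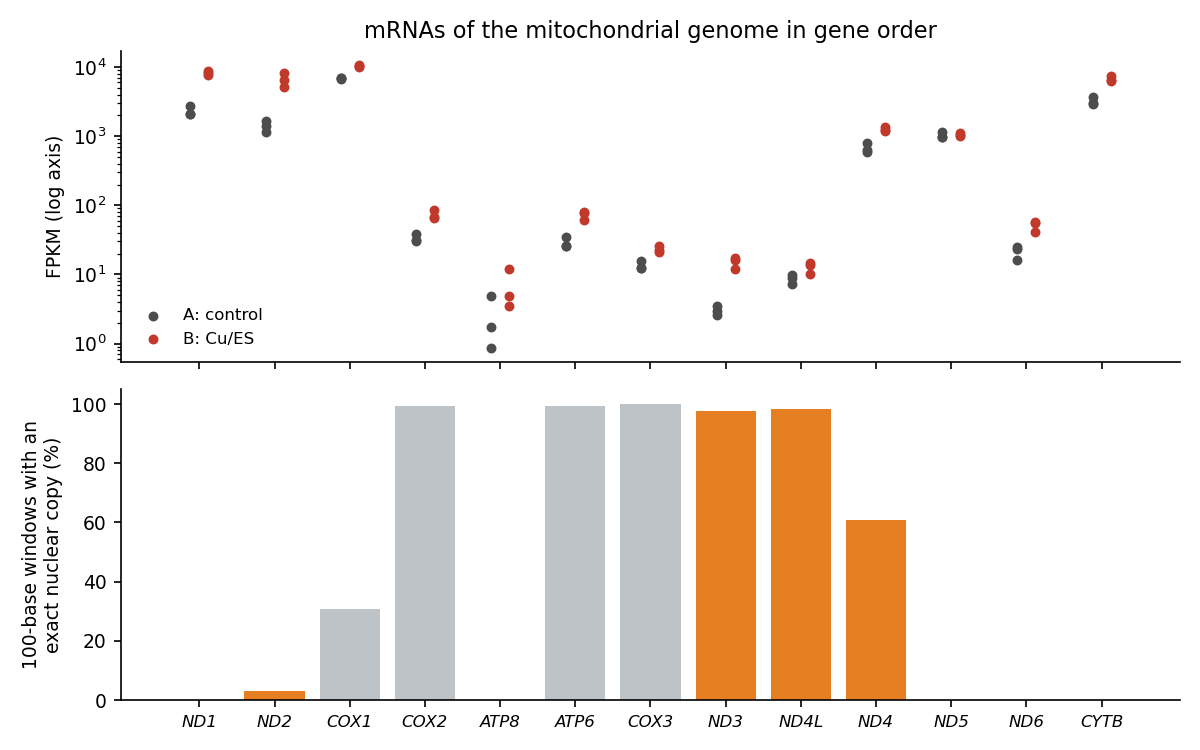
The upper panel plots the FPKM (log axis) of the 13 mitochondrial mRNAs in gene order, 1 point per library, in groups A and B. The lower panel plots the percentage of 100-base windows with an exact copy in an annotated nuclear transcript, with ND genes in orange and the other genes in grey. ND3 and ND4L lie in a stretch of low mRNAs from COX2 to ND4L. In it, every gene but ATP8 has annotated nuclear copies over more than 90% of its windows.

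Cu/ES alone was examined by group B vs. A. Of the 7 ND transcripts, 5 were higher in group B at an adjusted p under 0.05 and none was lower, whereas 20.1% of all 10615 genes tested were higher and 72.0% were lower (limma on log2(FPKM + 1), Benjamini-Hochberg adjustment). Past both this threshold and a log2 fold change of 1, 4 of the 7 were higher, against 10.1% of all genes. Libraries of 6 of the 7 were higher in group B without overlap, where 20.5% of all genes were. The median log2 fold change of the 7 was 1.23 and that of all genes tested was −1.10. Most genes were thus lower in group B, and each FPKM is a share of its library. Relative to the median gene, the ND differences in log2 fold change ran from 1.15 for ND5 to 3.33 for ND2. The ND genes took 0.651 ± 0.0984% of all reads in group A and 1.84 ± 0.215% in group B, and the 13 mitochondrial mRNAs together took 2.002 to 2.23% and 4.08 to 4.49%.

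ND1 and ND2, the first genes after the rRNAs, carried most of this increase. ND1 was at 2122, 2777 and 2072 FPKM in libraries A1 to A3 and at 8712, 7575 and 8225 FPKM in B1 to B3. The groups lay far apart, with a log2 fold change of 1.82 (SE 0.10, limma adjusted p = 3.72e-10). ND2 was at 1400, 1656 and 1145 FPKM in group A and at 8261, 5167 and 6391 FPKM in group B. The lowest library of group B was still well above all of group A, and the log2 fold change was 2.23 (SE 0.18, limma adjusted p = 1.74e-08). As ratios of means these were 3.52-fold and 4.72-fold.

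ND3, the subunit whose mobile loop lies by the ubiquinone site, was at 2.93, 3.47 and 2.57 FPKM in group A and at 17.3, 12.1 and 16.4 FPKM in group B. The libraries lay apart, with a log2 fold change of 2.02 (SE 0.19, limma adjusted p = 1.24e-07), on a scale whose pseudocount of 1 understates a gene this low. Its ratio of means was the highest of the 7 at 5.12. ND6 was at 23.2, 15.9 and 24.7 FPKM in group A and at 55.1, 41.4 and 56.6 FPKM in group B. Replicate 2 was the lowest in both groups, which lay apart, with a log2 fold change of 1.23 (SE 0.22, limma adjusted p = 8.53e-05).

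The 2 genes of the bicistronic mRNA differed in how firmly they could be called. ND4 was at 587, 810 and 639 FPKM in group A and at 1232, 1351 and 1200 FPKM in group B. The groups did not overlap, and ND4 rose by a log2 fold change of 0.91 (SE 0.10, limma adjusted p = 1.17e-06), short of the fold threshold. ND4L was at 9.76, 7.18 and 9.04 FPKM in group A and at 13.9, 14.7 and 10.3 FPKM in group B. Its libraries did not overlap either, but the log2 fold change of 0.53 (SE 0.27) gave a limma adjusted p of 0.0771. Without replicate 3 of group B the limma adjusted p of ND4L was 0.0493, and over its 17 alternatives it ran from 2.21e-05 to 0.526. The ratio of ND4 to ND4L in FPKM averaged 81.2 ± 27.9 in the controls and 99.0 ± 15.4 with Cu/ES (SD, n = 3), with overlapping libraries. For 1 shared mRNA both genes would have similar FPKM, so these values are not amounts of that mRNA. The reason for the difference was not tested.

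ND5, the pump at the far end of the membrane arm, stood apart from the others. It was at 958, 1169 and 967 FPKM in group A and at 1119, 1055 and 1010 FPKM in group B. The libraries overlapped, and the log2 fold change was 0.05 (SE 0.09, limma adjusted p = 0.620). ND5 had 56686 to 82950 reads per library in groups A and B. Its coefficient of variation in group A was 11.6%, against 0.37% from counting. Without replicate 1 of group A the log2 fold change was −0.0038. Its sign depended on scaling, with −0.32 as TPM, −0.85 after quantile normalization and 1.39 after scaling by the median ratio of all genes, each past the threshold (limma adjusted p from 6.53e-09 to 0.977 over 17 alternatives). ND1 and ND4 were still called higher as TPM and after median-ratio scaling. Both lost the call after quantile normalization, which holds the highest ranks of every library to the same values. There the log2 fold change of ND1 shrank to 0.32 and that of ND4 to 0.0043 (limma adjusted p = 0.0915 and 0.974, from 1.36e-11 and 4.38e-10 upward over the alternatives).

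**Figure D2:**
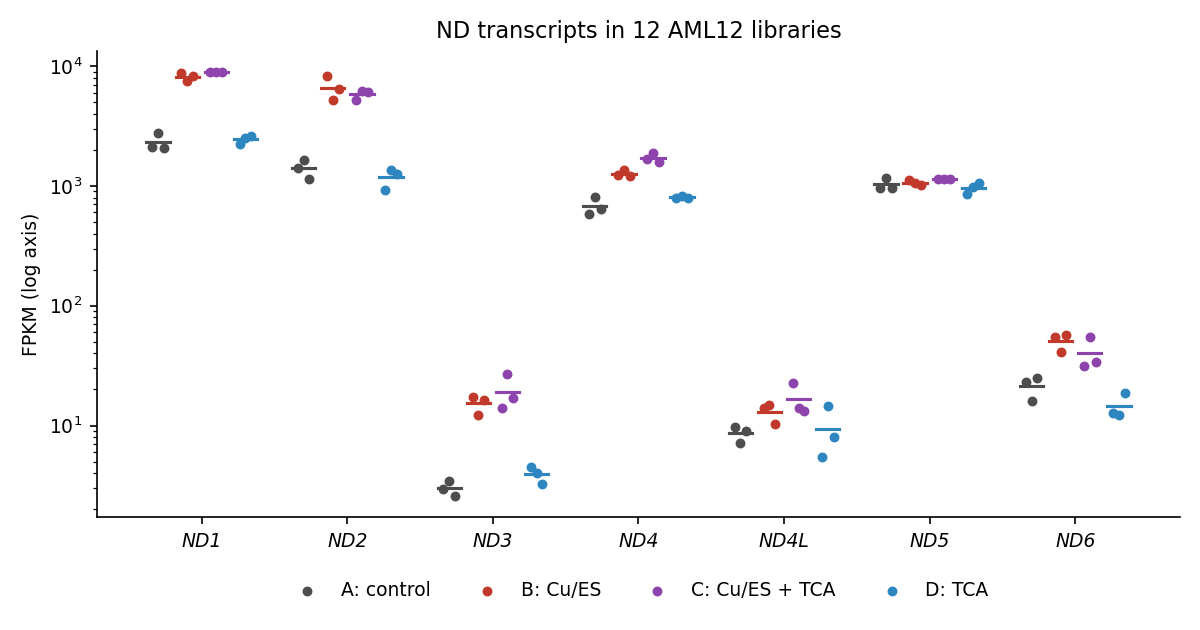
FPKM (log axis) of the 7 ND transcripts in the 12 libraries, 1 point per library and a line at the mean of each group. Groups B and C lie above groups A and D for ND1, ND2, ND3, ND4 and ND6. ND5 stays between 857 and 1169 FPKM in all libraries.

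Relative to the mitochondrial genome, the ND transcripts did not move as a block. The other 6 mRNAs, for subunits of complexes III, IV and V, were all higher in group B than in group A at an adjusted p under 0.05 (limma), with log2 fold changes of 0.60 to 1.32 and a median of 1.09. Each ND transcript was therefore set against the mean log2 FPKM of these 6 in the same library. B minus A, this log2 ratio was 0.74 for ND1, 1.14 for ND2 and 1.26 for ND3, and −1.04 for ND5. Libraries of the groups did not overlap for these 4 genes, also with ATP8 left out or with COX1 and CYTB alone as the reference. This ratio was not computed for nuclear genes, so no share of all genes stands beside it. ND4 and ND6 overlapped under each reference. ND4L was lower by this ratio (−0.51) without overlap against the 6, and overlapped under both other references. ATP8 had 1 to 77 reads per library, which adds scatter to the ratio.

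**Figure D3:**
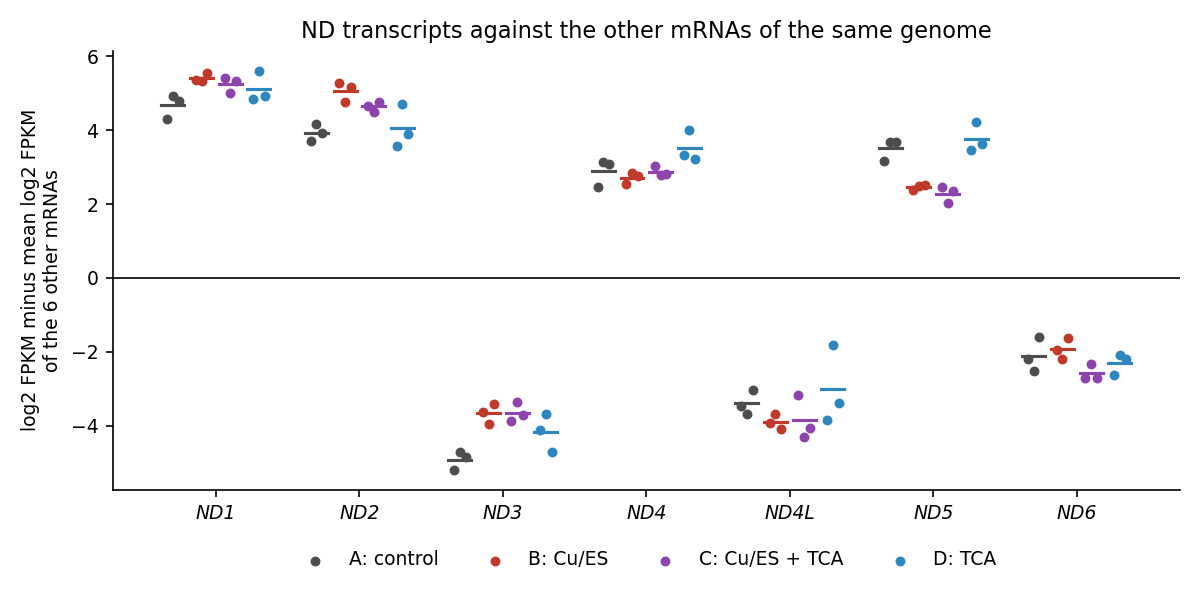
Log2 FPKM of each ND transcript minus the mean log2 FPKM of the 6 other mitochondrial mRNAs in the same library, 1 point per library and a line at the mean of each group. From group A to group B, ND1, ND2 and ND3 shift up by 0.74 to 1.26 and ND5 shifts down, with no overlap of libraries.

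The make-up of the 13 mRNAs differed accordingly. ND transcripts made up 34.9 ± 2.73% of the summed FPKM of the 13 mRNAs in the controls, against 49.6 ± 3.34% with Cu/ES. ND5 supplied 6.59% of that sum in the controls and 3.08% with Cu/ES, and ND2 supplied 8.93% and 19.0%. ND1 over ND5, both from the same strand and both without an exact nuclear copy, had a ratio of FPKM of 2.25 ± 0.119 in group A and 7.71 ± 0.486 in group B (SD, n = 3). ND5 over ND6, the neighbours on opposite strands, had a ratio of 39.1 to 73.3 in group A and 17.8 to 25.5 in group B, so that the groups did not overlap.

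Cu/ES in the presence of TCA was examined by group C vs. D, which shares no library with B vs. A. Its group C libraries were among those on which the genes of this genome had been selected. All 7 ND transcripts were higher in group C at an adjusted p under 0.05 (limma, Benjamini-Hochberg adjustment), against 20.9% of all genes, and 5 also passed the fold threshold, against 11.2%. The median log2 fold change was 1.39 for the 7 and −1.13 for all genes. Libraries of 6 of the 7 did not overlap, and the exception was ND4L. Of all genes, 20.4% were higher without overlap.

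ND1 was at 8886, 8890 and 8940 FPKM in group C and at 2236, 2532 and 2615 FPKM in group D. The 3 libraries of group C were nearly identical, and the log2 fold change was 1.86 (SE 0.10, limma adjusted p = 2.87e-10). ND2 was at 5262, 6237 and 6055 FPKM in group C and at 924, 1360 and 1265 FPKM in group D, with a log2 fold change of 2.32 (SE 0.18, limma adjusted p = 1.06e-08). ND3 was at 14.1, 26.7 and 16.8 FPKM in group C and at 4.48, 4.01 and 3.27 FPKM in group D. Its high library was replicate 2 of group C, and the log2 fold change was 1.997 (SE 0.19, limma adjusted p = 1.39e-07).

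ND4 and ND6 rose in the same direction. ND4 was at 1678, 1894 and 1570 FPKM in group C and at 788, 826 and 800.0 FPKM in group D, with a log2 fold change of 1.09 (limma adjusted p = 1.50e-07). After quantile normalization ND1 and ND4 again lost the call, with log2 fold changes of 0.31 and 0.26 (limma adjusted p = 0.103 and 0.0562). ND6 was at 31.6, 54.9 and 33.7 FPKM in group C and at 12.6, 12.3 and 18.6 FPKM in group D. Every library of group C exceeded those of group D, replicate 2 of group C by far, with a log2 fold change of 1.39 (limma adjusted p = 2.68e-05).

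The calls for ND4L and ND5 were less firm. ND4L was at 22.8, 13.98 and 13.2 FPKM in group C and at 5.42, 14.7 and 8.09 FPKM in group D. Replicate 2 of group D lay within group C, and the log2 fold change was 0.82 (SE 0.27, limma adjusted p = 0.0101). The call was lost as TPM (limma adjusted p = 0.0723), without replicate 1 of group C (0.0564) and without replicate 1 of group D (0.0627), within a range of 3.41e-06 to 0.0723 over the alternatives. ND5 was at 1139, 1132 and 1137 FPKM in group C and at 857, 970 and 1051 FPKM in group D. Group C lay above group D throughout, with a log2 fold change of 0.25 (SE 0.09, limma adjusted p = 0.0158), which turned to −0.04 as TPM and −0.52 after quantile normalization. Without replicate 1 of group D the value for ND5 was 0.17 (limma adjusted p = 0.0852, within 1.01e-09 to 0.674 over the alternatives).

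Within the genome, ND5 was lower against the 6 other mRNAs in group C than in group D by 1.49 on the log2 scale, with no overlap under any of the 3 references. ND4 was also lower (−0.65, no overlap), but overlapped with COX1 and CYTB alone as the reference. For ND1, ND2 and ND3 the libraries overlapped against the 6, where replicate 2 of group D had a single read of ATP8, and did not overlap with ATP8 left out (0.42, 0.88 and 0.81). ND1 over ND5 had a ratio of 7.84 ± 0.0355 in group C and 2.57 ± 0.0700 in group D.

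TCA alone was examined by group D vs. A, which shares its libraries with the comparisons above. None of the 7 ND transcripts passed an adjusted p of 0.05 (limma; also 0 with limma-voom on the recovered reads), while 10.5% of all genes were higher and 11.5% were lower. At an unadjusted p under 0.05 there were 2 of 7, beside 3802 of all 10615 genes. These 2 were ND4 with a log2 fold change of 0.26 (limma adjusted p = 0.0929) and ND6 with −0.53 (limma adjusted p = 0.0984). Libraries of all 7 overlapped between the groups, whereas 20.7% of all genes were higher and 23.5% lower without overlap. Without replicate 2 of group A, in which ND4 was highest and ND6 lowest of the 3, ND4 was at 0.39 (limma adjusted p = 0.00950) and ND6 at −0.71 (0.0428). Over the alternatives the limma adjusted p of ND4 ran from 0.00950 to 0.349 and that of ND6 from 0.0428 to 0.281. The other log2 fold changes were 0.09 for ND1, −0.25 for ND2, 0.30 for ND3, 0.02 for ND4L and −0.10 for ND5.

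TCA on top of Cu/ES, group C vs. B, is described without a test. It shares its libraries with B vs. A and C vs. D. By sign, 5 of the 7 ND transcripts were higher in group C, where 45.8% of all genes were. The log2 differences were 0.44 for ND4, 0.31 for ND4L, 0.28 for ND3, 0.13 for ND1 and 0.10 for ND5, and −0.15 for ND2 and −0.37 for ND6. Libraries of ND1, ND4 and ND5 did not overlap, which held for 22.0% of all genes in this direction. The median of the 7 was 0.13 and that of all genes was −0.03. Without replicate 1 of group B the value for ND2 was 0.02, so its sign rested on 1 library, and without replicate 2 of group C the value for ND3 was 0.03. The 6 other mitochondrial mRNAs ran from −0.06 to 0.47, with 5 higher. Differences between C vs. D and B vs. A, again without a test, were 0.03 for ND1, 0.09 for ND2, −0.02 for ND3, 0.18 for ND4, 0.30 for ND4L, 0.20 for ND5 and 0.15 for ND6.

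**Figure D4:**
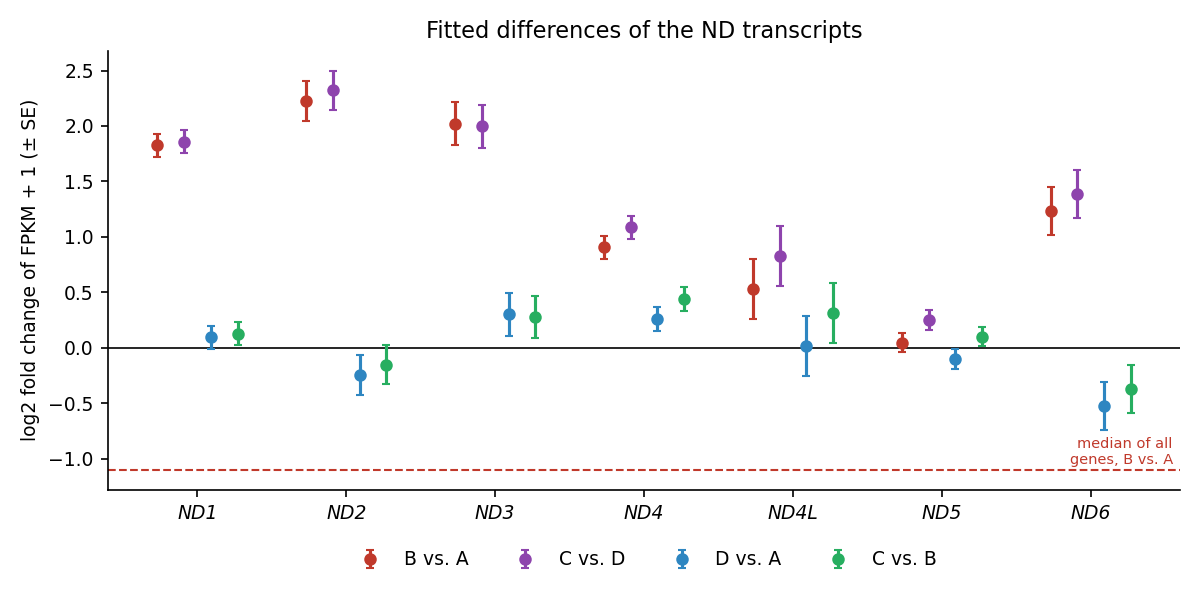
Log2 fold change of FPKM + 1 from limma with its SE for each ND transcript in 4 comparisons, which share libraries. The dashed line marks the median of all genes tested in B vs. A (−1.10). B vs. A and C vs. D lie together and reach 2.23 and 2.32 for ND2, and D vs. A and C vs. B lie between −0.53 and 0.44.

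Ordered by group, ND1 and ND4 were highest in group C and then in group B, with no overlap between these neighbours, and their libraries overlapped between groups D and A. ND3 had the same order with overlap between C and B and between D and A. ND2 and ND6 were highest in group B, where libraries overlapped with group C, and those of A overlapped with those of D. ND5 was highest in group C, and groups B, A and D overlapped in turn. For ND4L every neighbouring pair of groups overlapped.

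The nuclear genes of complex I were lower in group B. Of the 7 nuclear core subunits, which carry the flavin and the iron-sulfur clusters, all 7 were lower than in group A at an adjusted p under 0.05 (limma), as were 72.0% of all genes, and 5 passed the fold threshold (53.0% of all genes were lower past both), with a median log2 fold change of −1.42. This list follows the median of all genes (−1.10). After median-ratio scaling 3 were higher and 3 were lower, beside 4670 and 4654 of all 10615 genes. Ndufv2, an iron-sulfur subunit of the NADH-binding module, fell most, from 61.2 ± 3.89 to 8.35 ± 0.479 FPKM (limma, log2 fold change −2.73, adjusted p = 7.18e-12). The summed FPKM of the 7 ND transcripts over that of the 7 nuclear core subunits was 15.6 ± 2.62 and 15.7 ± 2.42 without Cu/ES (groups A and D), 117 ± 12.9 with Cu/ES alone and 167 ± 6.21 with Cu/ES and TCA (SD, n = 3).

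Of 30 supernumerary subunits, 24 were lower and 1 was higher, against 72.0% and 20.1% of all genes. Their median of −0.75 lies above the median of all genes (−1.10). After median-ratio scaling 18 were higher and 4 were lower, against 4670 and 4654 of all 10615 genes. Ndufv3, a small subunit of the NADH-binding module, fell from 78.5 to 4.999 FPKM (log2 fold change −3.73, limma adjusted p = 4.60e-12). Ndufb2, of the membrane arm, was at 16.2 and 21.2 FPKM (log2 fold change 0.37, limma adjusted p = 0.0306, and 0.02 as TPM). Of 20 listed assembly factors, 17 were tested, of which 16 were lower and 1 was higher (all genes 72.0% and 20.1%), with a median of −2.11. Dmac1, which assembles the distal membrane arm, was at 20.8 FPKM in group A and 0.892 in group B, and Ndufaf2, a late assembly factor, rose from 6.72 to 11.3 FPKM (log2 fold change 0.68, limma adjusted p = 7.60e-05). After median-ratio scaling 12 assembly factors were still lower and 1 was higher, against 4654 and 4670 of all 10615 genes.

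Of 9 genes tested for transcription of the mitochondrial genome, 8 were lower and 1 was higher in group B at an adjusted p under 0.05 (limma), beside 72.0% and 20.1% of all genes. After median-ratio scaling 7 were lower and 1 was higher, beside 4654 and 4670 of all 10615 genes. Polrmt, the mitochondrial RNA polymerase, fell from 5.88 to 0.992 FPKM, and Tfam, which packages mitochondrial DNA and starts transcription, fell from 14.2 to 4.54 FPKM. Tefm, the elongation factor, fell from 8.97 to 0.146 FPKM. The exception was Tfb2m, an initiation factor, which rose from 5.93 to 13.3 FPKM (log2 fold change 1.05, limma adjusted p = 1.90e-08). Each of these 4 kept its direction as TPM and after median-ratio and quantile scaling, but the log2 fold change of Tfam shrank from −1.46 to −0.27 after median-ratio scaling and to −0.26 after quantile normalization, where its call was lost (limma adjusted p = 0.0528).

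Of 13 genes for processing of mitochondrial RNA, 10 were lower and 2 were higher, with a median of −1.52. These shares are near the 72.0% and 20.1% of all genes. After median-ratio scaling 9 were lower and 3 were higher, beside 4654 and 4670 of all 10615 genes. Trmt10c, a subunit of the mitochondrial RNase P that cuts at tRNAs, rose from 12.3 to 33.6 FPKM. Grsf1, an RNA granule protein that binds ND6 RNA, fell from 40.2 to 5.96 FPKM, and Fastk, known to be needed for ND6 mRNA, fell from 29.5 to 1.95 FPKM while ND6 itself was higher in group B.

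Of 8 genes for stability and decay of mitochondrial RNA, 5 were lower and 2 were higher, near the 72.0% and 20.1% of all genes. Their median was −0.40. After median-ratio scaling 6 were higher and 1 was lower, with a median of 0.75. Under that scaling 4670 of all 10615 genes were higher and 4654 were lower, with a median of 0.01. Lrpprc, which with Slirp stabilises mitochondrial mRNAs, rose from 22.4 to 45.2 FPKM (log2 fold change 0.98, limma adjusted p = 3.17e-09), while Slirp was at 56.6 and 57.2 FPKM. Supv3l1, the helicase of the mitochondrial degradosome, rose from 9.18 to 31.1 FPKM, and Mtpap, the mitochondrial poly(A) polymerase, fell from 8.08 to 2.04 FPKM. Lrpprc and Supv3l1 were called higher under all 4 scalings, whereas the log2 fold change of Mtpap was −1.59 as deposited and −0.21 after quantile normalization, where its call was lost (limma adjusted p = 0.0670). The libraries select poly(A), and the part of polyadenylation in the ND levels was not tested.

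**Figure D5:**
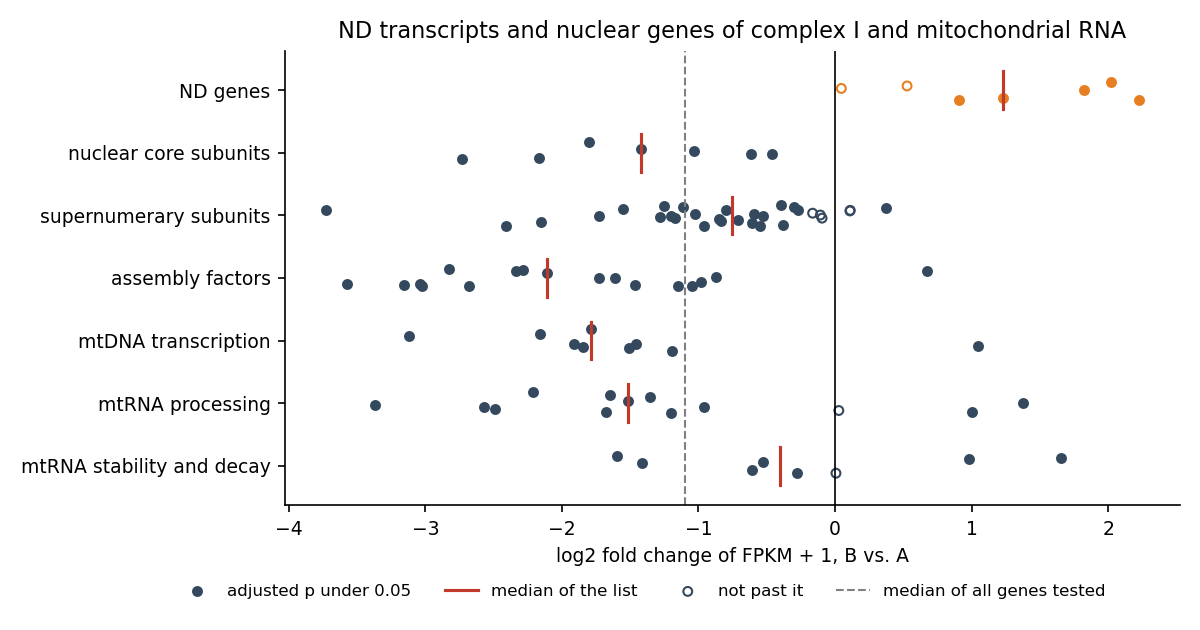
Log2 fold change of FPKM + 1, B vs. A, of the 7 ND transcripts (orange) and of 6 lists of nuclear genes (blue), 1 point per gene. Filled points passed an adjusted p of 0.05 (limma), red bars mark the median of each list and the dashed line marks the median of all genes tested (−1.10). The ND genes lie to the right of all list medians.

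In group C vs. B, most nuclear subunits of complex I were lower, but the list of assembly factors was not. Of the 7 nuclear core subunits 6 were lower and none was higher, and of the 30 supernumerary subunits 28 were lower and none was higher at an adjusted p under 0.05 (limma), with medians of −0.47 and −0.72 (all genes −0.03), against 20.4% of all genes higher and 23.6% lower. After median-ratio scaling 5 and 28 were lower, beside 2321 of all 10615 genes. Of the 17 assembly factors tested, 2 were lower and 1 was higher, with a median of −0.12. Complex I genes had drawn notice in this comparison in earlier work on these libraries, so this is not independent evidence. In group D vs. A none of the nuclear core subunits and 1 of the supernumerary subunits, Ndufv3 (log2 fold change −0.63, limma adjusted p = 0.00647), passed. Of the 17 assembly factors, 1 was higher and 2 were lower there, beside 10.5% and 11.5% of all genes.

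The nuclear genes whose profile over the 12 libraries was most like the mean ND profile were Zbed5, Gm16973, Cnn3, Lin52 and Trip6. Likeness was the root mean square difference between centred log2(FPKM + 1) profiles, over 10602 genes, and was 0.0902 for Zbed5 and 0.115 to 0.118 for the other 4. Cnn3, an actin-binding protein, was at 159 ± 12.5 FPKM in group A and 385 ± 10.6 FPKM in group B. The ND transcripts themselves differed from their mean profile by 0.256 for ND4 to 0.594 for ND5, and COX2 differed from it by 0.213.

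Some markers of other cells differed between the groups. The summed FPKM of 3 endothelial markers was 0.885 to 1.06 in the controls, 6.45 to 10.2 with Cu/ES and 15.99 to 19.2 with Cu/ES and TCA. Nearly all of the rise was Pecam1, with means of 0.214, 6.85 and 16.1 FPKM. Cdh5 averaged 0.740, 0.933 and 1.60 FPKM, and Stab2 was at most 0.0319 FPKM in any library. The sum of 4 stellate cell and fibroblast markers was 20.6 to 37.6 FPKM in group A and 1.63 to 3.25 in group B. Acta2 alone of these went the other way, from a mean of 0.00604 to 0.360 FPKM. The 2 macrophage markers in the table, Ptprc and Adgre1, stayed at 0 to 0.0976 FPKM in sum in every library. The summed level of 6 hepatocyte markers was 596 to 649 FPKM in group A and 236 to 287 in group B, nearly all from Krt8 and Krt18. Apoa1 and Trf went the other way, from means of 0.00863 to 1.86 FPKM and of 0.00741 to 0.718 FPKM. Alb and Hnf4a were at most 0.0758 and 0.0304 FPKM in any library. The summed level of 4 cholangiocyte markers was 230 to 326 FPKM in group A and 111 to 140 in group B. The cholangiocyte sum was mostly Krt19, at 268 and 77.3 FPKM, while Sox9 was at 10.6 and 50.9 FPKM. The part of these in the ND levels was not tested.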

How the data were processed

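RNA of 12 AML12 libraries (4 groups, A to D, 3 each) was sequenced by the authors on an Illumina NovaSeq after poly(A) selection. The submitters' processing notes name fastp, HISAT2, HTSeq and the GRCm39 build. Versions, annotation and strand setting are not given in the sources used here. The authors deposited FPKM values of single libraries. Groups came from the sample labels. The reference used here is GRCm38, so no coordinate is printed. A single limma model of the 4 groups (version 3.58.1, R 4.3.3) was fitted to log2(FPKM + 1) of the 10615 genes whose mean FPKM reached 1 (trend, 8 residual degrees of freedom, two-sided p, Benjamini-Hochberg adjustment).

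Read numbers were worked out from the steps between FPKM values, and 100% of these genes gave whole reads in every library, within 0.05 read. They cover counting error only. Median-ratio, TPM and quantile scaling, limma-voom on recovered reads, a pseudocount of 0.1, a minimum of 5 or none, no trend, only the groups compared, totals less the mitochondrial genome, a replicate block and each library left out were alternatives. The COX1 and CYTB reference was added after seeing the data. A 3 against 3 exact permutation test cannot go below p = 0.1 and was not used. Same-numbered libraries of groups A and B deviated together only weakly (r of 0.173, 0.174 and 0.142). This does not show that the numbers of the labels pair samples, and the main model is unpaired. Steps were tested on simulated data. Nuclear copies were found with blastn 2.17.0+ among GENCODE M21 transcripts, not in the whole genome. Sequences are from GENCODE M21, gene lengths from RefSeq. The members, gene lists and tests were chosen with earlier results of these data known. Named nuclear genes are the largest rise and fall among called genes of each list in B vs. A, plus Polrmt, Tfam, Lrpprc, Slirp, Grsf1 and Fastk. Python 3.11.15, pandas 2.3.3, numpy 2.4.6 and matplotlib 3.10.9 made tables and plots.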

Additional observations from a re-analysis of the deposited data

How the results depend on the processing

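Of 357 fold changes of ND transcripts recomputed under alternatives in B vs. A, C vs. D and D vs. A, 334 kept their direction and side of the threshold, 8 lost a call, 8 gained one and 7 changed direction. For ND5 these were B vs. A, at −0.32 as TPM, −0.85 after quantile normalization and −0.0038 without replicate 1 of group A (up to 0.14 with other libraries left out), and C vs. D, at −0.04 as TPM and −0.52 after quantile normalization. ND4L in D vs. A, at 0.02 and not called, was −0.10 without replicate 2 of group A and −0.33 without replicate 2 of group D (up to 0.32 with other libraries left out). After median-ratio scaling all 7 ND transcripts were higher past both thresholds in B vs. A, in place of 4. Of all 10615 genes, 2856 were higher past both under that scaling, in place of 1070. In D vs. A, leaving out 1 library gave 0 to 2 ND transcripts past the adjusted p. With the replicate block 1 passed, ND4 (limma adjusted p = 0.0329), and the block changed no other ND call. In D vs. A, same-numbered libraries correlated at 0.0872 to 0.579, in C vs. D at −0.171 to 0.11 and in C vs. B at 0.00502 to 0.277. The numbers are not taken to pair samples in any comparison. With the block, all genes past the adjusted p were 9825 in B vs. A, 9867 in C vs. D, 2609 in D vs. A and 4897 in C vs. B, against 9777, 9807, 2339 and 4670.

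Counts over all genes moved more. Past both thresholds they were 6692, 6851, 23 and 243 in B vs. A, C vs. D, D vs. A and C vs. B. A minimum mean of 5 FPKM, which tests fewer genes, gave 4089, 4280 and 14 past both thresholds in the first 3 and 6317, 6366 and 1513 past the adjusted p. A pseudocount of 0.1 gave 95 and 703 past both thresholds in D vs. A and C vs. B and 1427 past the adjusted p in D vs. A, TPM gave 59 and 386, limma-voom gave 104 and 780, median-ratio scaling gave 15 in D vs. A and quantile normalization gave 154 in C vs. B. The cause was not tested. Leaving out 1 library in D vs. A gave 1420 to 2031 past the adjusted p, with 1446 without replicate 1 of group A, 1492 without replicate 1 of group D and 1420 without replicate 3 of group D. Scaling decided the split in B vs. A, with 2138 higher and 7639 lower genes past the adjusted p as deposited and 4670 and 4654 after median-ratio scaling, where the median of all genes was 0.01 in place of −1.10. ND transcripts whose ratio to the other mitochondrial mRNAs did not overlap numbered 2 in C vs. D, 5 with ATP8 left out and 4 against COX1 and CYTB, 2, 1 and 1 in D vs. A, and 2 in C vs. B with 1 when ATP8 was left out. In C vs. B against COX1 and CYTB, ND1, ND2 and ND5 did not overlap, each lower in group C. No share of all genes was computed for these ratios. Depth limits ND3, ND4L and ND6 most.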
